A study of Mus musculus with 2 samples.

Results

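The cytosolic ribosome is built from ribosomal RNA and a fixed set of ribosomal proteins, and the mRNAs of those proteins were measured here in single-nucleus RNA sequencing (snRNA-seq) of interscapular brown adipose tissue (BAT). The genes were taken by symbol: Rpl or Rps followed by a number and at most 1 letter a, x or y, the stalk genes Rplp0 to Rplp2, and Rpsa, with pseudogenes left out. This gave 76 of the 32285 genes in the count matrices, of which 43 carry an Rpl number, 29 an Rps number, 3 are stalk genes and 1 is Rpsa. All 76 were annotated as protein-coding and all 76 had unique molecular identifiers (UMIs, 1 per captured RNA molecule) in both libraries. The series holds 2 libraries of 8-week-old mice, 1 from Srsf1 flox/flox mice without Cre (WT) and 1 from Adipoq-Cre; Srsf1 flox/flox mice (KO), so both groups carry the floxed Srsf1 alleles and differ by the Cre transgene. The Adipoq promoter is active in mature adipocytes, so the other cell types of the tissue in the KO mice keep an unrecombined Srsf1 as far as the driver is specific. How many mice went into each library is not given in the sources used here. With 1 library per genotype there is no replicate, no test or p-value is given, every interval printed covers counting error only, and a difference between the genotypes cannot be told apart from a difference between 2 libraries.

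Ribosomal protein mRNAs are among the most abundant mRNAs of the cytoplasm. They are short, they are transcribed and spliced in the nucleus and exported, and most of their molecules sit in the cytoplasm, where their translation is set together through a stretch of pyrimidines (C or T in DNA) at the start of the mRNA, the terminal oligopyrimidine (TOP) motif. In a preparation of nuclei, their level therefore counts both nascent and newly made nuclear mRNA and any cytoplasmic RNA that stays with the nucleus or floats in the droplet. Mitochondrially encoded RNA is never made in the nucleus and is used beside the ribosomal protein mRNAs below as a second kind of RNA from outside the nucleus.

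The start of the mRNA is shown first, because the TOP motif is the sequence feature for which ribosomal protein mRNAs are best known. What was counted is a wider feature than that motif. The run may reach upstream of the annotated first base, and this base may be T. A minority of the windows read here held such a run. RefSeq promoter sequences (GRCm38.p6) were found for 56 of the 76 genes. For each gene, the promoter with the longest unbroken run of C or T over the annotated first base was taken, on the gene's strand. A run of at least 7 bases was present in 19 of the 56 (33.9%), against 6.22% of all 27025 genes with promoters of that length. Among the other gene lists described below, 27.3% of 11 translation factor and other TOP genes had such a run. The share was 6.35% of 63 nuclear genes of oxidative phosphorylation (OXPHOS) and 1.45% of 69 mitochondrial ribosomal protein genes. The first base alone was C in 19 of the 56 ribosomal protein genes (33.9%), against 18.2% of the 27025. A match describes the letters in the window only, and a missing match depends on where RefSeq places the first base. The following windows of 30 bases have 15 bases before the annotated first base, with the run in capitals. They belong to genes whose values are described below, first 6 with a run and then 2 without one.
Rplp2, chr7:141447636-141447665, plus strand: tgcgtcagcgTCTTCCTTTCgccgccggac
Rps24, chr14:24490663-24490692, plus strand: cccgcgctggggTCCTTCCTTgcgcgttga
Rps15a, chr7:118116133-118116162, minus strand: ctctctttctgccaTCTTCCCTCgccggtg
Rpl35, chr2:39005117-39005146, minus strand: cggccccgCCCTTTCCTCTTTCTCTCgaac
Rpl28, chr7:4792950-4792979, plus strand: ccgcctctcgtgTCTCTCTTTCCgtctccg
Rpl15, chr14:18270972-18271001, minus strand: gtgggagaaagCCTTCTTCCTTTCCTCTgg
Rpl11, chr4:136053379-136053408, minus strand: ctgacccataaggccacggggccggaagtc
Rpsa, chr9:120127751-120127780, plus strand: gtgggttatttaaggacgtcatttccggcc

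The genes are spread over 19 chromosomes, with 4 of them on the X chromosome (Rpl10, Rpl36a, Rpl39 and Rps4x). Their loci are compact, with a median span of 3266 bases against 12268 for all genes in the annotation of the same build. A total of 29 of the 76 hold small nucleolar RNAs within their span on the same strand, 56 in all. A further feature, overlap with an annotated gene on the opposite strand, was found for 20 of the 76. Across the 76 genes, the log2 ratio of KO to WT in adipocytes had a Spearman correlation of -0.087 with the bases outside all annotated exons. In endothelial nuclei it was -0.24, over genes that share libraries and are not independent. This base count is not intron length, since the exons of all transcripts were joined, and it was 0 for Rps13 and Rpl9. The median log2 ratio in adipocytes was -0.50 for the 29 genes with a small nucleolar RNA and -0.55 for the 47 without one. Ribosomal protein genes have many processed pseudogenes with nearly the same sequence, so the counts of single genes are uncertain where reads could be shared.

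The WT library held 93102814 UMIs in 12846 barcodes and the KO library 80090208 in 11495. Barcodes with at least 750 UMIs and at most 10% mitochondrially encoded UMIs were kept, which left 12818 and 10911, with medians of 3459.5 and 4601 UMIs. The KO library alone reached below 750 UMIs (569 barcodes), and 52 barcode sequences occurred in both libraries. Mitochondrially encoded RNA made up a median of 1.10% of the UMIs of a barcode in WT and 0.0491% in KO. Srsf1, the targeted gene, was at 187 UMIs per 1000000 (CPM, 1094 UMIs) in WT and 55.3 CPM (186 UMIs) in KO nuclei called adipocyte, a log2 ratio of -1.76 (95% counting interval -1.99 to -1.53). It was lower in KO in the endothelial nuclei as well, at 139 against 77.6 CPM (-0.84, -1.06 to -0.62) and in every other class, with log2 ratios from -1.51 to -0.39 outside the adipocytes.

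Ribosomal protein mRNA was a small part of nuclear RNA in both libraries and a smaller part in KO. The 76 genes took 0.257% of the UMIs of the kept WT barcodes (239492 UMIs, 95% interval 0.256 to 0.258) and 0.215% in KO (171721 UMIs, 0.214 to 0.216), a log2 ratio of -0.26 (-0.27 to -0.25). The median barcode differed more than the sum, with 0.315% in WT and 0.159% in KO. The middle 50% of barcodes lay between 0.216 and 0.541% in WT and between 0.105 and 0.245% in KO, and the 2 ranges overlapped between 0.216 and 0.245%. At the top the order turned around, since the 99th percentile was 1.59% in WT and 2.72% in KO. The 546 KO barcodes with the highest share (5%) held 23.7% of the ribosomal protein UMIs of their library, while the 641 WT barcodes of the same rank held 5.87%. They differed in depth too, since they held 3.20% of all UMIs in KO and 1.03% in WT. With each barcode thinned to 750 UMIs, 89.6% of WT and 70.7% of KO barcodes had at least 1 ribosomal protein UMI (99.9 and 98.3% before thinning).

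Cell classes were called for each barcode from the summed UMIs of marker lists, since no annotation of the nuclei was used here. A barcode took the class whose marker share was highest relative to the mean of both libraries, with at least 3 marker UMIs and at least 2 times the next class. This is a strict call, and 8551 WT (66.7%) and 5667 KO (51.9%) barcodes were left without a class. It named 656 WT and 465 KO adipocytes, 154 and 951 adipocyte stem and progenitor cells (ASPC), 1879 and 997 endothelial, 278 and 1608 macrophage or other myeloid, and 513 and 320 mural nuclei. Own markers were detected in each of these classes, with 1 myeloid marker at 0 in WT. Detection is weak support for a call. Among the 10 genes most enriched over the other kept barcodes, 0 were own markers in WT adipocytes. The same held in KO ASPC, KO endothelial and KO myeloid nuclei, and 1 or 2 were own markers in the other main classes and libraries. Adipocyte markers were also high outside the adipocytes: they took 20146 CPM in WT adipocytes, 8210 CPM in WT endothelial nuclei and 3915 CPM in KO endothelial nuclei. In the barcodes without a class they took 15435 CPM in WT and 7134 CPM in KO. Nuclei of adipocytes may therefore lie outside the class named adipocyte here. The part of these markers in the results below was not tested.

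In adipocytes, the cells in which the Cre driver acts, the ribosomal protein share was lower in KO. It was 0.228% of UMIs in WT (13298 UMIs, 0.224 to 0.232) and 0.165% in KO (5534 UMIs, 0.160 to 0.169), a log2 ratio of -0.47 (-0.51 to -0.42). The median nucleus gave 0.239% and 0.157%. Adipocytes and mural nuclei had the lowest shares of the 5 main classes in WT, with intervals that overlapped (0.230% in mural, 0.225 to 0.235). In KO the ASPC were lowest at 0.159% (0.156 to 0.163), beside the adipocytes, and their intervals overlapped too.

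The decrease was not limited to the adipocytes. In ASPC, the precursors of adipocytes, the share was 0.360% in WT (3261 UMIs) and 0.159% in KO (9511 UMIs), the widest gap of the 5 main classes with a log2 ratio of -1.17 (-1.23 to -1.12). Endothelial nuclei went from 0.325 to 0.226% (-0.52, -0.56 to -0.48), a ratio whose interval overlapped that of the adipocytes. Myeloid nuclei had 0.318% in WT and 0.266% in KO (-0.26, -0.30 to -0.21). Mural nuclei, which are pericytes and smooth muscle cells of vessels, stood apart in the pooled UMIs, with 0.230% in WT and 0.249% in KO (0.12, 0.066 to 0.17). Their median nucleus went the other way, from 0.255 to 0.161%, without the 5% deepest barcodes of each library the pooled ratio was -0.25, and 16 of the 320 KO mural nuclei held 35.9% of the ribosomal protein UMIs of that class. In the endothelial and myeloid KO nuclei the top 5% likewise held 33.7 and 31.2%, against 7.13 and 10.8% in WT. Of all UMIs of their class, these nuclei held 6.52 and 4.35% in KO and 2.17 and 2.71% in WT. In mural nuclei the top 5% held 7.89% of all UMIs in KO and 1.39% in WT.

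The smaller classes are given by their shares only. Nuclei called lymphocyte (109 and 488) had 0.312% in WT and 0.187% in KO, Schwann nuclei (198 and 226) had 0.251 and 0.179%, and skeletal muscle nuclei (158 and 62) had 0.330 and 0.249%. Barcodes called by globin mRNAs (322 and 127) had the highest share of all classes in both libraries, 0.480% in WT and 1.26% in KO. Globin mRNA comes from red blood cells, which have no nucleus in mammals, so these barcodes are defined by RNA from outside the nuclei. They were also the class with the closest mitochondrial shares, 1.83% in WT and 1.34% in KO. In the barcodes without a class, the share was 0.245% in WT and 0.201% in KO.

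**Figure D1:**
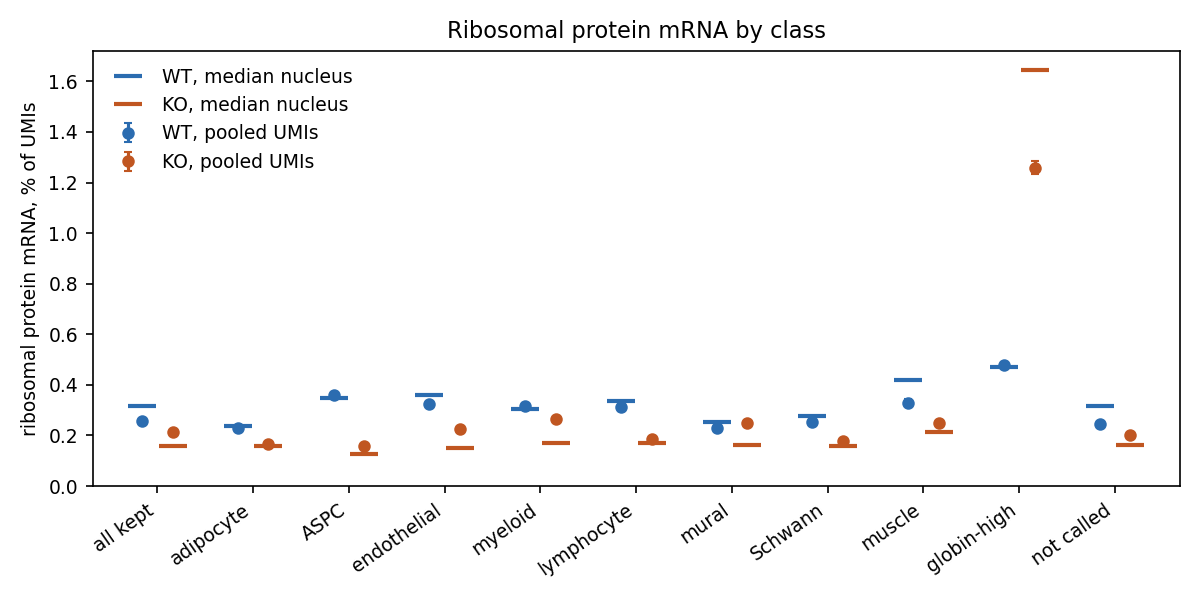
Percent of UMIs from the 76 ribosomal protein genes (y axis) in each class (x axis), for the WT (blue) and the KO library (orange). Points are pooled UMIs with 95% Poisson intervals and bars are the median nucleus. In KO the globin-high class stands at 1.26%, while adipocytes stand at 0.165% against 0.228% in WT.

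Mitochondrially encoded RNA was lower in KO in every class, also in the mural and globin-high classes, where the pooled ribosomal protein share was higher. It was 0.740% of UMIs in WT adipocytes and 0.0560% in KO adipocytes, 13.2-fold apart, and the WT share was 6.86 to 14.9 times the KO share over the 5 main classes. Its part in the result was not tested. The ribosomal protein share was next set out by depth and by mitochondrial share.

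Both libraries had more ribosomal protein mRNA in shallow than in deep barcodes. The depth bins of the ribosomal protein share, and the shallow and deep barcodes below, hold all deposited barcodes, with no limit on mitochondrial UMIs. In WT the share fell from 0.842% at 750 to 1000 UMIs through 0.516% at 1500 to 2000, 0.350% at 3000 to 5000 and 0.228% at 8000 to 12000 to 0.189% at 20000 UMIs and more. In KO it fell from 0.875% through 0.303, 0.225 and 0.216% to 0.191% in the same bins. The KO curve dropped sooner and then stayed flat, and the 569 KO barcodes below 750 UMIs, which were not kept, had 1.05%. The libraries therefore met at both ends and differed in the middle. The log2 ratio was 0.06 (-9.4e-05 to 0.11) in the lowest bin, -0.77 at 1500 to 2000, -0.78 (-0.82 to -0.74) at 2000 to 3000, -0.64 at 3000 to 5000 and -0.38 at 5000 to 8000 UMIs. Above 20000 UMIs, where 621 WT and 592 KO barcodes held 68143 and 45287 ribosomal protein UMIs, it was 0.01 (-0.01 to 0.03). In those deep barcodes mitochondrial RNA was still 0.641% in WT and 0.0721% in KO, 8.88-fold apart.

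The depth pattern differed by class. In adipocytes the KO share was below the WT share in each of the 4 bins with at least 20 nuclei in both libraries. At 5000 to 8000 UMIs it was 0.263% in WT (270 nuclei) and 0.165% in KO (141 nuclei), and at 12000 to 20000 UMIs it was 0.202% (80 nuclei) and 0.133% (45 nuclei), a log2 ratio of -0.60 (-0.71 to -0.48). Over all deposited barcodes the ratio of that last bin was -0.02 (-0.05 to 0.002). The adipocytes were not the only part that was apart there. In the same bin the barcodes without a class were at -0.16 (-0.19 to -0.12) and mural nuclei at 0.27 (0.14 to 0.40), so the pooled value mixes opposite directions. In endothelial nuclei the shallow WT barcodes were rich in ribosomal protein mRNA and the shallow KO barcodes were not: at 1000 to 1500 UMIs the shares were 0.580% (178 nuclei) and 0.232% (176 nuclei), a log2 ratio of -1.33 (-1.48 to -1.18). At 5000 to 8000 UMIs they were 0.300 and 0.282% (-0.09, -0.20 to 0.02).

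With all classes pooled, nearly every member took part in the shallow enrichment. Between barcodes of 750 to 1500 UMIs and of at least 8000 UMIs within a library, 75 of 76 genes in WT and 72 of 76 in KO were at least 2-fold higher in the shallow barcodes, beside 9.64% of 15825 genes in WT and 9.72% of 15486 in KO, with medians on the log2 scale of 1.92 and 1.60, against 0.003 and -0.05 for all genes. Rplp1, a stalk protein, had the largest enrichment in both libraries, from 25.1 CPM in deep to 168 CPM in shallow barcodes in WT (2.74, 2.60 to 2.88) and from 45.7 to 220 CPM in KO (2.27, 2.08 to 2.45). The genes with the smallest enrichment were Rpl10a in WT (0.90) and Rpl11 in KO (0.24, -0.06 to 0.52), and Rpl11 was the only one of the 76 in KO whose interval included 0. Other short abundant mRNAs behaved alike, with medians of 1.91 in WT and 1.57 in KO over 14 genes. Ribosome biogenesis genes, whose products assemble ribosomes in the nucleolus, had medians of -0.03 and -0.003 over 34 genes. The nuclear long noncoding RNAs had medians of -0.42 and -0.19 over 4. Their summed share was 4.01% in shallow and 4.62% in deep barcodes in WT, and 3.78 and 3.33% in KO. Within endothelial nuclei, with deep barcodes taken from 3000 UMIs, 46 of 76 members in WT were at least 2-fold higher in shallow barcodes. In KO 0 of the 49 with enough UMIs were. All genes gave 430 of 9017 in WT and 65 of 5557 in KO. The medians of the members were 1.13 in WT and -0.17 in KO, so the enrichment was not seen in this class in KO. The genes named here for shallow enrichment were chosen after their values were seen.

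Barcodes were also binned by their share of mitochondrial RNA. Within each library the ribosomal protein share rose with it: in WT from 0.176% (1058 barcodes with 0.1 to 0.5% mitochondrial UMIs) through 0.221% at 0.5 to 1%, 0.355% at 1 to 2% and 0.677% at 2 to 5% to 1.23% at 5 to 10%. In KO the same bins gave 0.333, 1.03, 1.53, 1.86 and 3.02%, the 6499 KO barcodes above 0 and up to 0.1% gave 0.165%, and the 1674 KO barcodes with no mitochondrial UMI gave 0.153%. In WT, 2 barcodes had no mitochondrial UMI and 5 lay above 0 and up to 0.1%. At a matched mitochondrial share the KO library was therefore the higher one, 2.22 on the log2 scale (2.20 to 2.25) at 0.5 to 1%, where 4733 WT barcodes had a median of 7140 UMIs and 238 KO barcodes one of 2106.5. The paper reports fewer mitochondria and less mitochondrial DNA in the BAT of KO mice. An equal mitochondrial share therefore need not mean an equal amount of RNA from outside the nucleus, and this was not tested. Only 505 of 10911 KO barcodes (4.63%) passed 0.5% mitochondrial UMIs, against 91.7% in WT, yet they held 16.2% of the ribosomal protein UMIs of the KO library. In the barcodes at or under 0.5%, 1065 in WT and 10406 in KO, the ribosomal protein share was 0.176% and 0.185%. The same limit left 0.181 and 0.162% in adipocytes (71 and 458 nuclei), 0.246 and 0.143% in ASPC (32 and 927), 0.210 and 0.183% in endothelial (67 and 940), 0.238 and 0.234% in myeloid (67 and 1556) and 0.180 and 0.195% in mural nuclei (65 and 301).

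**Figure D2:**
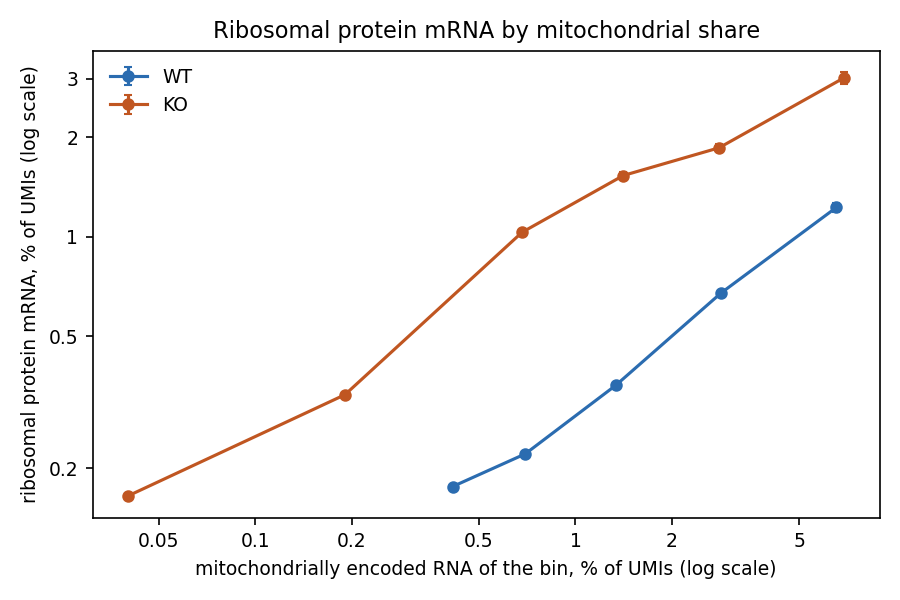
Percent of UMIs from ribosomal protein genes (y axis, log scale) against percent of UMIs from mitochondrially encoded genes (x axis, log scale) in bins of at least 20 barcodes, for WT (blue) and KO (orange) with 95% Poisson intervals. The KO barcodes with no mitochondrial UMI cannot be drawn on the log axis, and at 0.5 to 1% mitochondrial UMIs, WT stands at 0.221% and KO at 1.03%.

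The single genes were compared by their log2 ratio of KO to WT CPM, and a gene was counted as past 2-fold at a ratio of -1 or less or of 1 or more, among genes with at least 50 UMIs over both libraries in the class. All 76 reached that minimum in each of the 5 main classes. Over all kept barcodes, 3 of the 76 were at least 2-fold lower in KO and 0 higher, against 18.1% and 22.5% of the 18493 genes tested, and the median log2 ratio of the 76 was -0.26 against 0.12 for all genes. Counting error alone did not cover the spread between them, since the intervals of 63 of the 76 left out the pooled ratio.

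In adipocytes, 20 of the 76 were at least 2-fold lower in KO and 1 was higher, beside 14.9% and 17.1% of the 10176 genes tested, and the median was -0.54 against 0.10. A total of 68 of the 76 had a ratio below 0. At 1.5-fold, 35 of the 76 were lower, beside 23.3% of all genes. At 2 further settings the 76 did not lie above all genes: in nuclei with at most 0.5% mitochondrial UMIs 6 of the 63 with enough UMIs were lower, beside 9.99% of 8080 genes, and when the whole counting interval had to lie beyond 2-fold 2 of the 76 were, beside 8.81%. In ASPC 48 were lower and 0 higher (all genes 10.6% and 7.88%, median of the 76 at -1.24), and the ratio was below 0 for all 76. At 1.5-fold 70 were lower (all genes 19.6%), with at most 0.5% mitochondrial UMIs 26 of 74 (9.9% of 9542 genes), and with the whole interval beyond 2-fold 15 of 76 (4.99%). In endothelial nuclei 6 were lower and 0 higher (14.8% and 4.68%, median -0.53), and in myeloid nuclei 3 and 0 (9.56% and 7.21%, median -0.33). In mural nuclei 0 of the 76 passed 2-fold in either direction, against 11.6% lower and 8.39% higher, and the median was 0.12. Read against these background shares, with no test, the number of genes at least 2-fold lower was above the background in ASPC, at each of these settings, and in adipocytes, where it was not above it under the limit of 0.5% mitochondrial UMIs or by whole intervals. It was below the background in endothelial, myeloid and mural nuclei and over all barcodes at the main settings. The background was not computed there at other settings. In endothelial nuclei the median of the 76 nevertheless lay below that of all genes (-0.03), with 72 of the 76 below 0.

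The large subunit genes had lower ratios than the small subunit genes in each of the 5 main classes. In adipocytes the 46 large subunit genes, stalk included, summed to 1376 CPM in WT and 967 CPM in KO (-0.51, -0.57 to -0.45), and the 30 small subunit genes to 903 and 680 CPM (-0.41, -0.48 to -0.34). The median gene was at -0.75 in the large and -0.49 in the small subunit there, and 16 of 46 and 4 of 30 genes were at least 2-fold lower. The intervals of the sums overlapped in adipocytes and in ASPC (-1.22, -1.29 to -1.14, and -1.12, -1.21 to -1.03). They did not overlap over all kept barcodes, with -0.32 (-0.33 to -0.31) for the large and -0.17 (-0.18 to -0.16) for the small subunit, or in endothelial nuclei, with -0.58 (-0.63 to -0.52) and -0.45 (-0.51 to -0.39). Myeloid nuclei gave -0.32 (-0.38 to -0.26) and -0.17 (-0.24 to -0.10), and mural nuclei 0.05 (-0.02 to 0.11) and 0.22 (0.14 to 0.30), again without overlap.

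**Figure D3:**
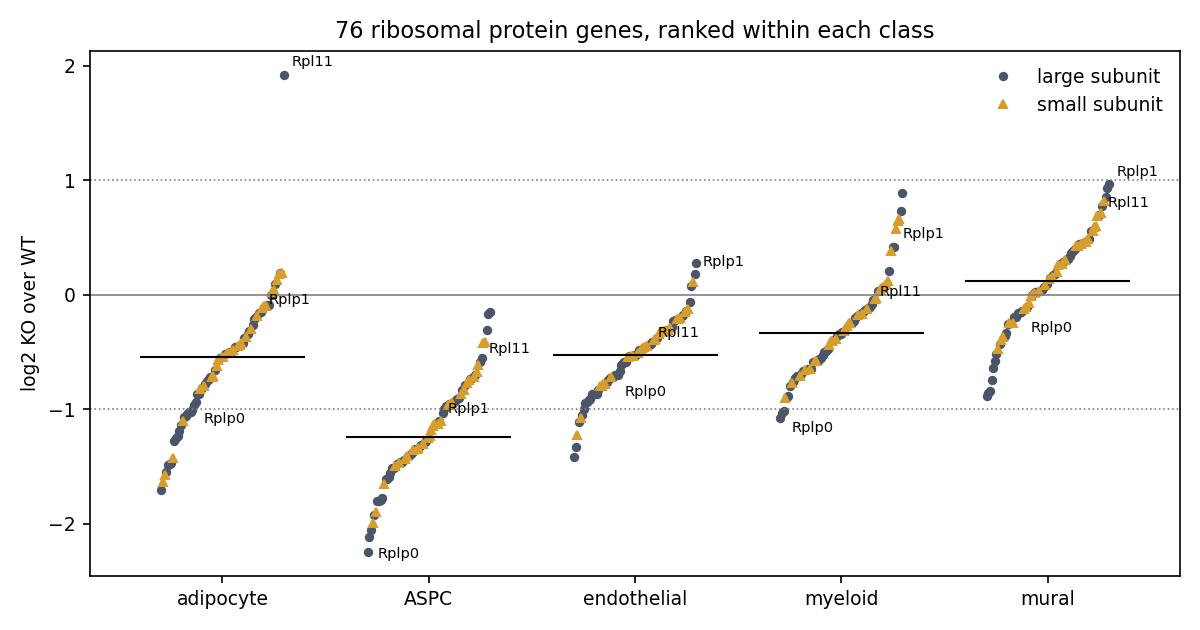
Log2 ratio of KO to WT CPM (y axis) of the 76 genes, ranked within each of the 5 main classes (x axis), with large subunit genes as circles and small subunit genes as triangles. Black lines are medians, dotted lines mark 2-fold, and Rpl11 in adipocytes stands alone above 1 at 1.92.

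Among the large subunit genes, the lowest ratios in adipocytes included those of Rpl10a, Rpl15 and Rpl28, all structural proteins of that subunit. Rpl10a was at 45.8 CPM in WT (267 UMIs) and 14.0 CPM in KO (47 UMIs), a log2 ratio of -1.71 (-2.19 to -1.26). Rpl15 was at 24.3 and 8.33 CPM (-1.55, -2.19 to -0.95) and Rpl28 at 29.3 and 10.4 CPM (-1.49, -2.06 to -0.96). In endothelial nuclei the same 3 genes had ratios of -0.83, -0.87 and -0.70. All 3 overlap a gene on the opposite strand. The whole interval of Rpl10a lay beyond 2-fold in adipocytes.

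Among the small subunit genes, Rps19, which is mutated in some patients with Diamond-Blackfan anaemia, was at 37.5 and 42.9 CPM (0.19, -0.12 to 0.50). Rps15a (0.13), Rps9 (0.19) and the large subunit gene Rpl35 (0.19) completed the 5 highest ratios together with Rpl11, and apart from Rpl11 each of their intervals included 0. Rps9 and Rps19 are thus genes whose KO level in adipocytes was not told apart from WT by counting error, whereas their endothelial ratios were -0.44 (-0.76 to -0.14) and -0.31 (-0.61 to -0.02).

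The stalk, which recruits the translation factors to the ribosome, did not move as a unit. Rplp0, its base, was at 20.6 CPM in WT and 10.7 CPM in KO adipocytes (-0.94, -1.52 to -0.39), at 57.4 and 13.2 CPM in ASPC (-2.11) and at 38.7 and 19.2 CPM in myeloid nuclei (-1.01). Rplp1, which forms dimers with Rplp2 on it, was at 29.5 and 26.5 CPM in adipocytes (-0.15, -0.54 to 0.22), at 60.0 and 68.1 CPM in endothelial nuclei (0.18, -0.07 to 0.43) and at 29.1 and 56.8 CPM in mural nuclei (0.96, 0.58 to 1.35). Rplp2 was at 66.1 and 52.1 CPM in adipocytes (-0.34) and at 83.4 and 45.7 CPM in endothelial nuclei (-0.87, -1.15 to -0.59). Rplp0 was therefore the lower one of the stalk genes in adipocytes and ASPC, and Rplp1 the highest in adipocytes and in endothelial, myeloid and mural nuclei.

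Rpsa, a small subunit protein that is also known as a laminin receptor, was at 40.4 CPM in WT and 29.8 CPM in KO adipocytes (-0.44, -0.79 to -0.10) and at 52.1 and 41.1 CPM in endothelial nuclei (-0.34). Rps27a, which is made as a fusion with ubiquitin, was at 26.4 and 24.4 CPM in adipocytes (-0.11, -0.52 to 0.28) and over all barcodes at 32.4 and 31.9 CPM (-0.02, -0.10 to 0.06).

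The genes with the most UMIs over both libraries were Rplp2, Rps24, Rps9, Rpl41, Rpl11 and Rps14. Over all kept barcodes Rplp2 was at 72.9 CPM in WT and 47.6 CPM in KO, Rps24 at 60.2 and 51.7, Rps9 at 57.1 and 52.4, Rpl41 at 55.2 and 48.9 and Rps14 at 56.1 and 41.3 CPM. Rpl11 was the one of these 6 with the higher value in KO, at 38.2 and 65.5 CPM. Per kilobase of annotated exon the order was another one, with Rpl36 (158 CPM per kilobase in WT, 71.0 in KO), Rplp1 (78.6 and 104) and Rps29 (59.6 and 71.9) at the top in WT, named after their values were seen. These per-length levels use all annotated exons, while the 3' chemistry reads the end of the mRNA.

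The difference between the adipocyte and the endothelial ratio had a median of -0.13 over the 76 genes, with 46 of them lower in adipocytes. Among its most negative values were those of Rpl36a (-0.97) and Rpl7 (-0.88), and it was most positive for Rpl11 (2.37), Rps9 (0.63) and Rpl12 (0.61). Rpl12 was at 21.6 and 20.2 CPM in adipocytes and at 31.2 and 19.1 CPM in endothelial nuclei.

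Rpl11 was the 1 member that was more than 2-fold higher in KO adipocytes, and the next highest ratio there was 0.19. Its protein sits in the central protuberance of the large subunit with Rpl5 and the 5S ribosomal RNA, and outside the ribosome it can bind Mdm2, the ligase that degrades p53. It was at 34.1 CPM in WT (199 UMIs, 29.5 to 39.2) and 129 CPM in KO adipocytes (435 UMIs, 118 to 142), a log2 ratio of 1.92 (1.68 to 2.17) or 3.80-fold, and 648 of the 10176 genes tested in adipocytes (6.37%) had a ratio as high. Rpl5 was at 33.2 and 29.8 CPM in the same nuclei (-0.16, -0.52 to 0.20).

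In the other classes Rpl11 took several directions. It was at 48.5 CPM in WT and 32.3 CPM in KO in ASPC (-0.59, -1.06 to -0.08), at 52.0 and 38.3 CPM in endothelial nuclei (-0.44, -0.77 to -0.13) and at 49.3 and 46.5 CPM in myeloid nuclei (-0.08, -0.44 to 0.29). It was at 39.1 and 63.2 CPM in mural nuclei (0.69, 0.34 to 1.04), at 39.5 and 62.8 CPM in Schwann nuclei (0.67) and at 60.4 and 155 CPM in skeletal muscle nuclei (1.36, 0.85 to 1.91). Lymphocytes had 46.4 CPM in WT and 57.4 CPM in KO (0.31, -0.26 to 0.93). The globin-high barcodes had 70.65 CPM in WT and 165 CPM in KO (1.22, 0.86 to 1.59), above the adipocytes in both libraries. The barcodes without a class had 35.6 CPM in WT and 67.7 CPM in KO (0.93). When classes were called among the 5 main marker lists alone, the endothelial ratio was -0.17 with an interval that included 0 (-0.42 to 0.07), and the adipocyte ratio was 1.62 (1.48 to 1.76). Among the 5 main classes, Rpl11 thus had its highest level in adipocytes in KO and its lowest there in WT. Within these 5 classes it was the only gene of the 76 that was highest in adipocytes in either library.

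The Rpl11 values were also set out by depth. In adipocytes of at least 8000 UMIs it was at 29.2 CPM in WT (112 UMIs) and 130 CPM in KO (247 UMIs), a log2 ratio of 2.16 (1.83 to 2.49), and at 3000 to 8000 UMIs at 39.1 and 129 CPM (1.72). Below 3000 UMIs, with 13 and 15 UMIs, it was at 114 and 120 CPM (0.07, -1.10 to 1.26), so no difference was detectable at this depth. With adipocyte nuclei thinned to 750 UMIs, the gene was seen in 3.20% of WT and 11.0% of KO nuclei, and before thinning in 26.1 and 46.0%. In endothelial nuclei the thinned shares were 4.95 and 1.81%. The median depths were 7474.5 and 5829 UMIs in adipocytes and 2415 and 2202 in endothelial nuclei. The locus spans 25164 bases on the minus strand of chromosome 4 (136028265 to 136053428) and overlaps no other gene of the count matrices. Of its span, 22467 bases lie outside all annotated exons, second among the 76. Reads from introns, if they were counted, could come from a longer stretch than in most members. Rps14 came first with 29055 bases, and its KO level in adipocytes, 30.1 CPM, was its lowest of the 5 main classes. Of the 10176 genes tested in adipocytes, 18.3% had a ratio at or below that of Rps14. The part of introns in the Rpl11 result was not tested.

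**Figure D4:**
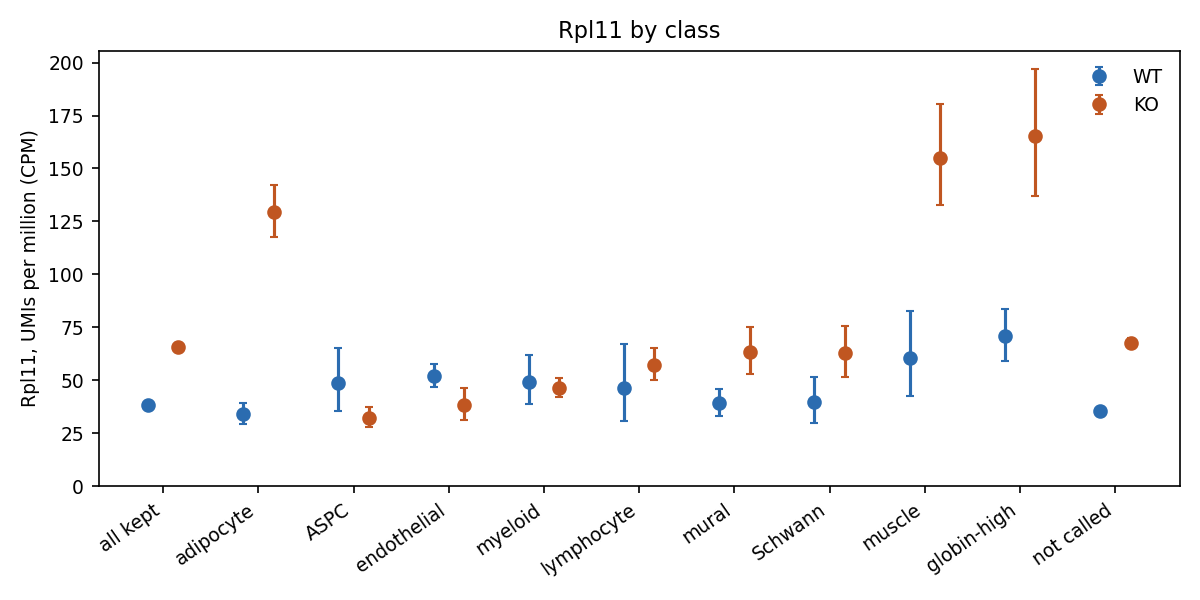
Rpl11 in CPM (y axis) by class (x axis) in the WT (blue) and the KO library (orange), with 95% Poisson intervals. In adipocytes it stands at 34.1 in WT and 129 in KO, and in endothelial nuclei at 52.0 and 38.3.

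Other genes of the translation machinery were read from lists of fixed symbols in the adipocytes, again beside 14.9% lower and 17.1% higher over all genes. Ribosomal proteins that the symbol rule leaves out, among them Fau, Rack1 and Rps3a1, had a median of -0.59 over the 8 of 12 with at least 50 UMIs, all 8 below 0 and 0 past 2-fold. Elongation factors, initiation factors and other TOP mRNAs had a median of -0.03 over 17 genes, with 2 lower and 2 higher. Eef1b2, a subunit of elongation factor 1, was lowest (22.3 and 8.63 CPM, -1.37) and Nap1l1, a histone chaperone, highest (27.4 and 70.2 CPM, 1.36), while Eef1a1, the elongation factor that brings in the aminoacyl-tRNA, was at 118 and 71.7 CPM (-0.71). Ribosome biogenesis genes had a median of 0.21 over 32 of 34, with 1 lower and 0 higher, from Nop10 (8.91 and 3.27 CPM, -1.44) to Mdn1, a large ATPase that releases assembly factors (113 and 220 CPM, 0.96). The ribosomal protein genes thus had a lower median in KO adipocytes than the genes that assemble the ribosome, in these libraries.

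Lists outside translation give the scale of the change. Mitochondrial ribosomal protein genes had a median of -0.71 over 74 of 78 (27 lower, 2 higher), from Mrpl41 (13.7 and 2.08 CPM, -2.72) to Mrps28 (104 and 295 CPM, 1.51). Nuclear OXPHOS genes had a median of -1.59 over 71 of 76, with 51 lower and 0 higher, from Cox7a1, a muscle and brown fat subunit of cytochrome c oxidase (43.5 and 3.87 CPM, -3.49), to Ndufs4 (435 and 376 CPM, -0.21). The 13 mitochondrially encoded genes had a median of -3.86 with 13 lower. Short abundant mRNAs had a median of -0.47 over 13 of 14 (4 lower, 2 higher), from Gapdh (72.1 and 17.6 CPM, -2.04) to B2m (33.1 and 95.8 CPM, 1.53). Noncoding hosts of small nucleolar RNAs had a median of -0.10 over 11, with 1 lower and 1 higher. The nuclear long noncoding RNAs had one of 0.67 over 4, with 0 lower and 1 higher. In both lists the summed UMIs had the opposite sign to the median. The hosts went from 0.0241% in WT to 0.0316% in KO (0.39, 0.27 to 0.51). The long noncoding RNAs went from 4.70 to 3.74% (-0.33, -0.34 to -0.32). In endothelial nuclei the cytosolic ribosomal proteins had a median of -0.53, the OXPHOS genes one of -2.06 and the mitochondrially encoded genes one of -3.01. The order of these 3 lists was thus the same as in adipocytes, and why was not tested.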

How the data were processed

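snRNA-seq was measured in 1 WT and 1 KO library of BAT nuclei with the 10x Genomics 3' chemistry. The deposited values are UMI counts per gene and barcode, which the authors made by aligning the reads to GRCm38 with STAR inside Cell Ranger. The paper also describes reads being down-sampled to normalize the samples when they were aggregated. Whether the deposited counts were down-sampled is not given in the sources used here, and this bears on the comparison of depths between the libraries. The methods name 1 version of Cell Ranger, and the submitters' processing notes name Cell Ranger 5.0.0, Seurat 3.1.1 and mm10. Whether intronic reads were counted is not given in the sources used here. The reported number of nuclei after quality control was not rebuilt, no doublet caller was run, and barcodes with mixed markers were left without a class.

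UMIs were summed per library and class and scaled to 1000000 or to percent, with exact 95% Poisson intervals, and the ratio of KO to WT was given an exact conditional binomial interval, both covering counting error only. A count of 2-fold used genes with at least 50 UMIs over both libraries. Python 3.11.15, numpy 2.4.6, pandas 2.3.3, scipy 1.17.1 and matplotlib 3.10.9 were used, and the ratios were tested on simulated data. Gene places came from GENCODE release vM21 and promoters from RefSeq. The members, gene lists and markers were chosen with earlier results of these data known. Named genes were the members with the 5 highest and 5 lowest ratios in adipocytes, the 6 with most UMIs, the stalk genes, Rpsa and Rps27a, those with the 3 largest and 3 smallest differences between adipocyte and endothelial ratios, Srsf1, and the extremes of the other lists. Others are named as chosen after their values were seen, as is Rpl5, the partner of Rpl11, and the members of lists named as examples. Some genes that this rule selects are not reported here.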

Additional observations from a re-analysis of the deposited data

Results flagged for a closer look

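The pooled ribosomal protein share was higher in KO in mural nuclei, with a log2 ratio of 0.12, and in globin-high barcodes, with 1.39, while it was lower in KO in the adipocyte, ASPC, endothelial, myeloid, lymphocyte, Schwann and skeletal muscle classes. The difference between the classes was not tested, since there is 1 library per genotype. Rpl11 was higher in KO in adipocytes, with a log2 ratio of 1.92, and lower in KO in endothelial nuclei, with -0.44, and this difference was not tested either. When classes were called among the 5 main marker lists alone, a choice made after seeing the data, the endothelial ratio of Rpl11 was -0.17 (-0.42 to 0.07), so that its direction there was not settled by the counts, and the adipocyte ratio was 1.62.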

How the results depend on the processing

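No paired analysis was possible because there is 1 library per genotype. Between nuclei of a library only counting error is known, and rare classes (154 WT ASPC) limit what can be told. For the share by class, 25 of 81 alternative values stayed within the counting interval of the ratio as reported, 51 of 69 medians stayed within theirs, 114 of 162 counts within 1.5 times and 14 of 18 values by depth within their interval. The causes were not tested. In adipocytes, ASPC, endothelial and myeloid nuclei the pooled ratio stayed below 0 in all 14 alternatives each, from -0.61 to -0.16, -1.58 to -0.79, -1.25 to -0.20 and -0.84 to -0.026.

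The following values left those limits, with log2 ratios of KO to WT. Counts of lower and higher genes are listed without the share of all genes past the same fold. For lower genes in adipocytes and ASPC that share is given above at some of these settings, and it was not computed for the rest. These counts are therefore not read as results about the members. Barcodes with at most 0.5% mitochondrial UMIs, a limit added after seeing the data, turned all barcodes to 0.074 in the pooled ratio and to 0.043 in the median. The pooled ratio was then -0.16 in adipocytes, -0.79 in ASPC, -0.20 in endothelial and -0.026 in myeloid nuclei, the medians were -0.15, -0.76, -0.30 and -0.10, lower genes numbered 0 over all barcodes, 6 in adipocytes, 26 in ASPC and 0 in myeloid nuclei, and higher genes 1, 2 in adipocytes, 1 in myeloid and 4 in mural nuclei. At most 1% gave pooled ratios of -0.078 over all barcodes, -0.38 in adipocytes, -0.96 in ASPC, -0.36 in endothelial, -0.11 in myeloid and 0.27 in mural nuclei, and 0.27, -0.31, -0.58 and -0.54 in the depth bins from 750, 1000, 2000 and 3000 UMIs. Medians were then -0.097 over all barcodes, -0.91 in ASPC and -0.38 in endothelial nuclei, lower genes 1, 2 (endothelial) and 0 (myeloid), and higher genes 1, 2 (myeloid) and 5 (mural). At least 2000 UMIs gave -0.17 over all barcodes, -0.37 in endothelial and -0.21 in myeloid nuclei, an endothelial median of -0.35, lower genes of 2 and 0 in endothelial and myeloid nuclei and 1 higher gene each in myeloid and mural nuclei. Leaving out the highest 5% of UMIs gave -0.42 over all barcodes, -0.52 in adipocytes, -1.24 in ASPC, -0.57 in endothelial, -0.21 in myeloid and -0.25 in mural nuclei, medians of -0.41 over all barcodes and -0.25 in mural nuclei, and lower genes of 6, 1 (myeloid) and 6 (mural). All deposited barcodes gave -0.24 together and -1.11 in ASPC.

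The mural nuclei reversed also with the mean over nuclei (-0.37), with the median over nuclei, added after seeing the data (-0.66), with thinning to 750 UMIs (-0.36) and with a margin of 5 times the next class (-0.44). The mean over nuclei gave -0.68 over all barcodes, -1.29 in ASPC, -0.90 in endothelial and -0.41 in myeloid nuclei. The median over nuclei gave -0.98, -0.61 in adipocytes, -1.47, -1.25 and -0.84, and thinning gave -0.69, -0.52 in adipocytes, -0.94 in endothelial and -0.40 in myeloid nuclei. Depth matching gave -0.23 over all barcodes, -0.57 in adipocytes, -1.58 in ASPC and -0.72 in endothelial nuclei. Centring on the median of all genes gave -0.38, -0.57 in adipocytes, 0.019 in mural nuclei and 6 lower genes over all barcodes, and leaving mitochondrial genes out of the total gave -0.27 over all barcodes.

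A margin of 5 times the next class left 71 WT and 117 KO adipocytes. It gave pooled ratios of -0.60 in adipocytes, -1.35 in ASPC, -0.75 in endothelial and -0.40 in myeloid nuclei. The medians were -0.19 in adipocytes (5 genes with enough UMIs), -0.76 in endothelial and -0.47 in mural nuclei. Lower genes were 0 of 5 in adipocytes, 11 of 18 in ASPC, 21 of 76 in endothelial, 5 in myeloid and 13 in mural nuclei, and 2 genes were higher in myeloid nuclei. At least 10 marker UMIs gave -0.20 in myeloid nuclei, with 0 lower and 1 higher gene there and 2 higher in mural nuclei. Calling among the 5 main lists, added after seeing the data, gave -1.10 in ASPC, -0.37 in endothelial, -0.47 in myeloid and 0.38 in mural nuclei, medians of -0.36, -0.53 and 0.35 in the last 3, lower genes of 3 in endothelial and 8 in myeloid nuclei and 4 higher in mural nuclei. With a minimum of 200 UMIs the ASPC median was -0.98, and 11 of 48 genes were lower in adipocytes and 11 of 22 in ASPC. At 1.5-fold, lower genes were 17 over all barcodes, 35 in adipocytes, 33 in endothelial, 20 in myeloid and 5 in mural nuclei, and higher genes 1, 4 (myeloid) and 10 (mural). With the counting interval also past 2-fold, lower genes were 2 in adipocytes, 15 in ASPC, 0 in endothelial and 0 in myeloid nuclei.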
